A study of Mus musculus with 2 samples.

Results

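Cathepsins A, B, C, D, H, K, L, S and Z and cystatin C (Ctsa, Ctsb, Ctsc, Ctsd, Ctsh, Ctsk, Ctsl, Ctss, Ctsz and Cst3) are 10 genes of the lysosome, chosen by symbol from 15181 symbols in 22 deposited tables that compare 2 single-cell libraries of interstitial cells from the infarcted mouse ventricle. One library came from PostnMCM mice, which express a tamoxifen-inducible Cre recombinase from the Postn locus and served as the control for Cre toxicity. The other came from Yapfl/fl;Wwtr1fl/+;PostnMCM mice, in which loxP sites flank Yap1 on both chromosomes and Wwtr1, which encodes TAZ, on 1 of them. Mice of both groups were adults of 8 to 10 weeks, carried the R26-eGFP transgene, underwent myocardial infarction (MI) by ligation of the left anterior descending artery and ate chow with 0.4 g/kg tamoxifen citrate from surgery on. The labels give 6 days after MI as the day of collection, and the study's methods give a day later. Ventricles were dissociated, viable cells were sorted and 3′ libraries were made by droplet capture, with the number of hearts per library not given in the sources used here. Cre from Postn acts in myofibroblasts, so that cells of the other populations carry floxed alleles without being its target.

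With 1 library per genotype there was no replicate, and no value below has an error or a test. The tables give neither the depth nor the number of cells behind a value, and the study states these for whole libraries, not per cluster, so that differences in depth cannot be told apart from differences between genotypes. Of the targeted genes, neither Yap1 nor Wwtr1 was in any of the 18 cluster tables. In the 4 fibroblast subcluster tables the log2 fold change of Yap1 lay between 0.04 and 0.31, although its share of cells was lower in subcluster 4 (57.5% and 40.0%). Wwtr1 lay between -0.30 and 0.15 and was below 0, with lower shares of cells, in subclusters 3, 4 and 5. The mean of Yap1 was thus not lower, and the second library is named by its label, as the library labelled depleted. These libraries read 3′ ends, so that a transcript without a floxed exon can still be counted.

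Cathepsins are proteases that are made as inactive precursors, sorted to lysosomes and activated there at acidic pH. Cysteine cathepsins (B, C, H, K, L, S and Z), the aspartic cathepsin D and the serine carboxypeptidase cathepsin A together degrade protein that reaches the lysosome by endocytosis, phagocytosis or autophagy. Macrophages and dendritic cells hold much of them for clearance of dead cells and for antigen processing, and fibroblasts and macrophages can also secrete cysteine cathepsins, which cut collagen and elastin. Cystatin C is a secreted protein that blocks cysteine cathepsins outside the cell.

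Many lysosomal genes carry in their promoter the hexamer CACGTG, the core of the element to which transcription factors of the TFEB and TFE3 family bind. RefSeq start-site windows (250 bases before to 50 after the start) were found for 8 of the 10 members, with none for Ctsb and Ctsh, and were placed in GRCm39 by exact match. CACGTG, which reads the same on both strands, was in windows of 3 of these 8 members (Ctsa, Ctsd and Ctsl), and in 7.15% of all 32851 windows. The 8 members had 9 windows, since Ctsa had another one without the hexamer. Members are counted here by gene and the background by window. The longer palindrome TCACGTGA, which holds the hexamer, was in windows of Ctsa and Ctsd and in 0.974% of all windows. These 3 stretches are shown because they are where the members share a promoter sequence, with the hexamer in capitals, 5′ to 3′ on the strand of the gene. The Ctsa stretch is chr2:164675669-164675698 on the plus strand, the Ctsd stretch chr7:141941645-141941674 on the minus strand and the Ctsl stretch chr13:64518553-64518582 on the minus strand.
Ctsa: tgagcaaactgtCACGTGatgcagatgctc
Ctsd: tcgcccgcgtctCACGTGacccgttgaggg
Ctsl: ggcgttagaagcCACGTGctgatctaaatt
The hexamer starts 12 bases before the start site in Ctsa, 98 bases before it in Ctsd and 236 bases before it in Ctsl. The same windows of Ctsa and Ctsd each hold another hexamer that is not shown, 5 bases after the start site in Ctsa, there also within TCACGTGA, and 245 bases before it in Ctsd. All 3 stretches lie within the GENCODE span of their gene, since the RefSeq start sites of these windows lie inside it. A match of letters describes these windows and does not show binding.

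Each table gives the percent of cells with a corrected count above 0 in the control library and in the library labelled depleted, and the average log2 fold change from the control to the library labelled depleted, taken on mean values plus a pseudocount of 1. A negative value means less transcript in the library labelled depleted. The tables of the 18 clusters list a gene only if its log2 fold change is at least 0.25 in size and at least 25% of cells of 1 library or the other have a count, so that a gene that is not listed has no value there. Cluster names are those of the study.

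Over the 18 clusters the 10 members were listed 40 times of 180 possible, 25 times lower and 15 times higher in the library labelled depleted. They were thus listed in 22.2% of cases against 5.65% over all genes and tables, a background that holds many genes counted in few cells, and the share listed lower was 62.5% against 52.3% over all listed genes. The 5 macrophage clusters (0, 3, 11, 12 and 13) held 16 of these rows, 11 lower and 5 higher, or 68.8% lower against 44.9% of all genes listed in them. In the 6 T cell clusters (4, 6, 7, 8, 9 and 10) there were 7 lower and 4 higher rows, 63.6% lower against 53.1%. The other 7 clusters held 7 lower and 6 higher, 53.8% lower against 55.7%. Clusters 2 (B cells), 3 (macrophages), 4 and 8 (T cells) listed none of the 10 genes.

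The same gene was often lower in one population and higher in another. Ctsb, Ctsl, Ctss, Ctsd, Ctsa and Cst3 were each listed in both directions, while Ctsc (5 clusters) and Ctsh (2 clusters) were listed lower only, Ctsz (2 clusters) higher only and Ctsk in no cluster. Without clusters 6, 9 and 10, Ctsa was listed lower only, and Ctsh and Ctsz were each listed in 1 cluster. Macrophage cluster 13 and proliferating T cell cluster 10 listed the most members, 5 each. Cluster 13 had 2 lower and 3 higher, and cluster 10 had 5 lower.

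**Figure D1:**
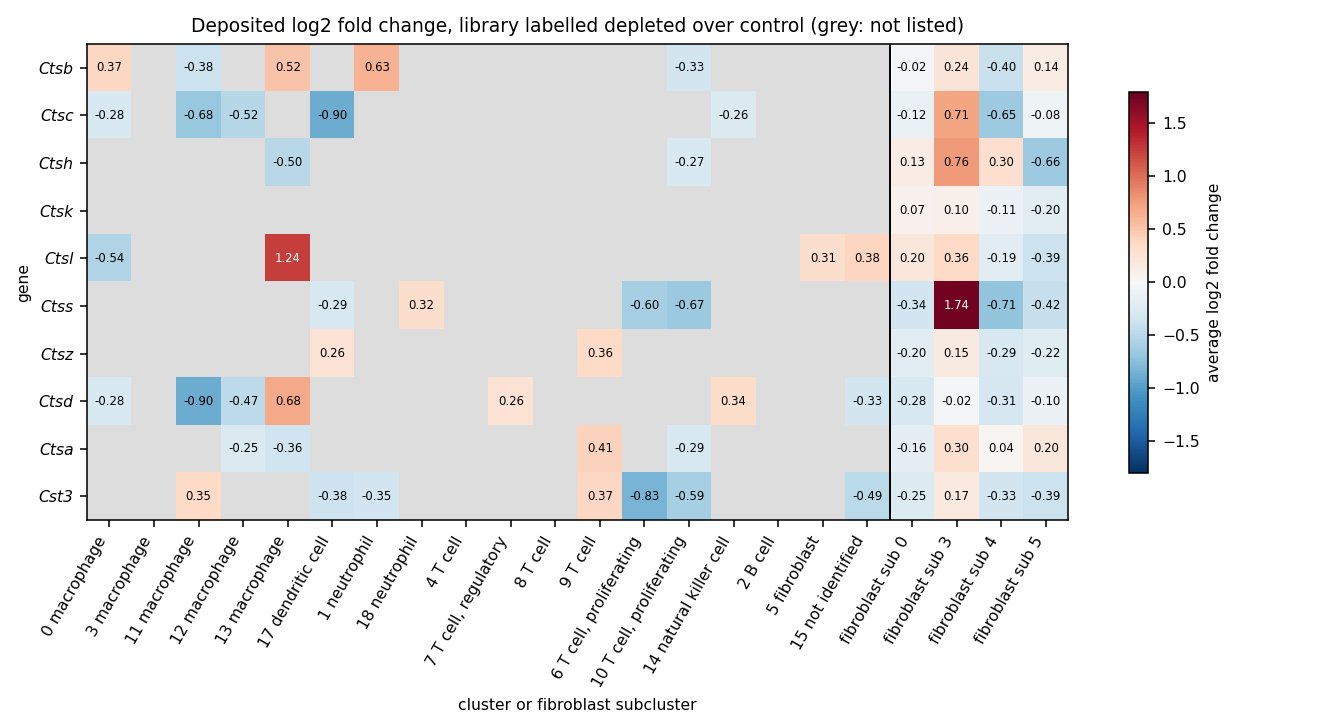
Deposited average log2 fold change, library labelled depleted against control, for the 10 genes (vertical axis) in 18 clusters and, right of the black line, 4 fibroblast subclusters (horizontal axis), with blue for lower, red for higher and grey for genes that a table does not list. Values run from -0.90 (Ctsd in cluster 11 and Ctsc in cluster 17) to 1.74 (Ctss in subcluster 3), and the column of cluster 13 holds both colours.

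Some values have to be read beside markers of other cells. Lyz2, a lysozyme of myeloid cells, was listed lower in 12 of the 18 clusters and higher in 1, and S100a9, an abundant neutrophil transcript, was also lower in 12 and higher in 1, in clusters of lymphocytes as well as myeloid cells. Doublets were not removed with a caller, and the part of free or foreign RNA in the values below was not tested. Clusters 6, 9 and 10, per the study, came mainly from hearts with floxed Yap1 and Wwtr1, so that their control values rest on few cells. Without these 3 clusters the members were listed 18 times lower and 12 times higher.

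Cathepsin B (Ctsb, chr14:63358384-63383372, plus strand in GRCm39) cuts within and from the carboxyl end of proteins. In macrophage cluster 0 all cells of either library had a count, and the log2 fold change was 0.37. All cells of macrophage cluster 13 likewise had a count, with a log2 fold change of 0.52. In neutrophil cluster 1 the share of cells went from 98.0% in the control to 98.8% in the library labelled depleted, with a log2 fold change of 0.63. Cluster 1 also listed Cd14 higher (1.81) and Retnlg (-0.91) and Lyz2 (-0.57) lower, and their part in its Ctsb, Cst3 and Cstb was not tested. Ctsb was thus higher in both of these macrophage clusters and in neutrophil cluster 1, where nearly every cell had it and the difference lay in the amount per cell. Neutrophil cluster 18 did not list Ctsb. It was lower in macrophage cluster 11, at -0.38, although its share of cells went slightly the other way, from 95.1% to 95.8%. In proliferating T cells of cluster 10 it was counted in 54.5% of control cells and 47.3% of cells labelled depleted, at -0.33.

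Cathepsin L (Ctsl, chr13:64507151-64518704, minus strand), an endopeptidase that processes many lysosomal proteins, had the widest range of the 10 genes over the clusters. In macrophage cluster 0 it was lower, with 99.2% of control cells, 95.0% of cells labelled depleted and a log2 fold change of -0.54. In macrophage cluster 13 it was higher, with 63.2% and 78.9% of cells and a log2 fold change of 1.24. The share of cells went with the log2 fold change in both clusters. Beside these values, cluster 0 listed Lyz2, Cd14, S100a8, S100a9 and Hbb-bs lower (-0.81 to -0.31) and Adgre1 higher (0.30). Cluster 13 listed Cd14 (2.40) and S100a8 (0.35) higher and Lyz2 (-1.36), S100a9 (-0.64), Csf3r (-0.30) and Batf3 (-0.38) lower. The part of these markers in the values of Ctsl, and in those of Ctsb, Ctsc and Ctsd in cluster 0, was not tested. Fibroblasts of cluster 5 had a count in 99.0% and 99.5% of cells with a log2 fold change of 0.31, which made Ctsl the 1 member listed in the fibroblast cluster. Cluster 5 also listed S100a9 (-2.22) and S100a8 (-1.89) lower and Cd14 (0.31) and the fibroblast markers Pdgfra, Lum, Dcn and Col3a1 (0.33 to 1.12) higher. Per the study, its subclusters differed in the genotype they mainly came from. Within subclusters 0, 3, 4 and 5, Ctsl was at 0.20, 0.36, -0.19 and -0.39. The part of these differences in the Ctsl value of cluster 5 was not tested. Cluster 15, which the study could not identify, had a count in all cells and 0.38. It also listed S100a9 (-0.63), Col3a1 (-0.51) and S100a8 (-0.36) lower and Clec9a (0.39) and Lyz2 (0.36) higher. The part of these markers in its Ctsl, Ctsd and Cst3 was not tested.

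Cathepsin S (Ctss, chr3:95433963-95463717, plus strand) stays active at neutral pH and trims the invariant chain, the chaperone of MHC class II, in antigen-presenting cells. All dendritic cells of cluster 17 had a count in both libraries, and the log2 fold change was -0.29. In proliferating T cells of cluster 10 the share of cells was 63.6% in the control and 24.7% in the library labelled depleted, with a log2 fold change of -0.67. Cluster 6, also of proliferating T cells, had 29.6% and 17.5% and -0.60. Both clusters of dividing T cells thus had a lower share of cells with a Ctss count in the library labelled depleted. Neutrophils of cluster 18 went the other way, from 18.2% to 29.4% with 0.32, beside lower Retnlg (-0.85), Hbb-bs (-0.71), Lyz2 (-0.49) and Col3a1 (-0.31) and higher Ltf (0.72). The invariant chain itself, Cd74, was listed in 6 clusters and lower in each, from -3.03 in cluster 6 (37.0% of control cells, 21.4% of cells labelled depleted) to -0.36 in cluster 15. Among the clusters that listed Ctss, Cd74 was lower in clusters 6 and 10, and also in cluster 18, where Ctss was higher. Dendritic cell cluster 17 did not list Cd74. Macrophage markers were lower beside Ctss in cluster 10, where 4 of 9 were listed, all lower, from -1.07 (Lyz2) to -0.34 (C1qc), and in cluster 6, where 1 of 9 was listed (C1qb, -0.58). Cluster 6 also listed S100a9 lower (-0.26). Cluster 10 also listed Col3a1 (-0.64) and S100a9 (-0.48) lower and the T cell markers Cd3g (0.50) and Cd3e (0.30) higher. The part of these markers in the Ctss and Cd74 values of both clusters was not tested. Nor was their part in Ctsb, Ctsh and Ctsa of cluster 10.

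Cathepsin K (Ctsk, chr3:95406178-95416732, plus strand), the collagenase of osteoclasts, was listed in none of the 18 clusters. Its values come from the fibroblast subclusters below.

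Cathepsin C (Ctsc, chr7:87927092-87960096, plus strand) removes dipeptides and activates the granule proteases of neutrophils, natural killer cells and cytotoxic T cells. It was listed lower in 5 clusters and higher in none. The dendritic cells of cluster 17 stood furthest apart, with a count in 70.0% of control cells and 18.2% of cells labelled depleted and a log2 fold change of -0.90. In macrophage cluster 11 the shares were 88.9% and 77.1% and the log2 fold change -0.68. Macrophage cluster 12 had 95.8% and 82.3% with -0.52. The first 3 of these clusters showed lower shares of cells and lower means together. In macrophage cluster 0 nearly all cells had it in either library (99.7% and 99.5%), at -0.28. Natural killer cells of cluster 14 had a mean that was lower (-0.26) with a share of cells that was higher (77.2% and 84.6%).

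Beside these values, macrophage cluster 11 listed 7 of 9 macrophage markers, all lower (-2.15 to -0.25), and 4 of 7 neutrophil markers, all lower (-2.99 to -1.07). It also listed Flt3, 1 of 4 dendritic cell markers, higher, at 0.53. Macrophage cluster 12 listed 1 of 9 macrophage markers (Lyz2, -1.11), and so did dendritic cell cluster 17 (Lyz2, -1.10). Cluster 12 also listed S100a9, S100a8, Dcn and Col3a1 lower (-0.86 to -0.35), and cluster 17 its own marker Flt3 lower (-0.35) and Clec9a higher (0.47), with Col3a1 (-0.63) and Hbb-bs (-0.49) lower. Cluster 17 listed both neutrophil transcripts S100a9 and S100a8 higher (0.68 and 1.17). Their part in the values of Ctsc, and in those of Ctsb, Ctsd and Cst3 in cluster 11, was not tested.

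Cathepsin H (Ctsh, chr9:89936205-89958148, plus strand) is an aminopeptidase. In macrophage cluster 13 it was counted in all control cells and 97.2% of cells labelled depleted, at -0.50. In proliferating T cells of cluster 10 the shares were 36.4% and 11.8%, at -0.27. Both values were lower, the first of them beside a higher Ctsl in the same macrophage cluster. The value of cluster 10 stood beside the lower macrophage markers and higher T cell markers given above.

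Cathepsin Z (Ctsz, chr2:174267304-174280832, minus strand), a carboxypeptidase, was listed higher in both clusters that held it. T cells of cluster 9 had a count in 41.2% of control cells and 58.7% of cells labelled depleted, at 0.36. Dendritic cells of cluster 17 had 95.0% and 100%, at 0.26. In the latter, Ctsz was the 1 member listed higher beside 3 listed lower (Ctsc, Ctss and Cst3).

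Cathepsin D (Ctsd, chr7:141929646-141941775, minus strand), the main aspartic protease of the lysosome, was with Cst3 the member listed in the most clusters, 4 lower and 3 higher. Macrophage cluster 11 differed most, with a count in 72.9% of control cells and 33.3% of cells labelled depleted and a log2 fold change of -0.90, beside the lower macrophage (7 of 9) and neutrophil (4 of 7) markers and the higher Flt3 given above. In macrophage cluster 12 the shares were 88.5% and 84.8%, at -0.47. In macrophage cluster 0 they were 100% and 99.8%, at -0.28. These 3 macrophage clusters were lower, while macrophage cluster 13 was higher, at 0.68 with 91.6% and 95.8% of cells. Cluster 13 also listed 3 of 9 macrophage markers higher (Cd14 at 2.40, Fcgr1 and Ms4a7) and 2 lower (Lyz2 and C1qb), and the part of such a difference in cells in its values was not tested. The unidentified cluster 15 had 87.5% and 81.8% of cells at -0.33. Regulatory T cells of cluster 7 had 88.9% and 97.5% at 0.26, in a cluster that listed S100a9 (-1.56), S100a8 (-1.27) and 2 of 5 T cell markers lower and 3 of 5 natural killer cell markers higher. All natural killer cells of cluster 14 had a count in both libraries, at 0.34. Cluster 14 also listed Lyz2 (-0.72), C1qb (-0.65), Ncr1 (-0.40) and Col3a1 (-0.30) lower and Klrb1c higher (1.23), and their part in its Ctsd and Ctsc was not tested.

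Cathepsin A (Ctsa, chr2:164674778-164682961, plus strand), a serine carboxypeptidase, also holds the neuraminidase Neu1 and beta-galactosidase in a stable complex. It was lower in macrophage cluster 13, from 95.8% to 87.3% of cells at -0.36. In macrophage cluster 12 it was at -0.25 with 91.7% and 89.9% of cells, and in cluster 10 of proliferating T cells at -0.29 with 45.5% and 21.5%. T cells of cluster 9 were the exception, at 0.41 with 29.4% and 40.7%. In cluster 13, Ctsa and Ctsh were thus lower where Ctsb, Ctsl and Ctsd were higher.

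Cystatin C (Cst3, chr2:148713635-148717887, minus strand), the inhibitor, was lower in 5 clusters and higher in 2. In proliferating T cells of cluster 6 it was at -0.83 with 63.0% of control cells and 59.7% of cells labelled depleted. In cluster 10 it was at -0.59 with 81.8% and 67.7%. T cells of cluster 9 went the other way, at 0.37 with 70.6% and 85.2%. Among the T cell clusters the direction thus split between the dividing populations, both lower, and cluster 9. Cluster 9 also listed the B cell marker Cd79b higher (0.41) and Nkg7, S100a8 and Col3a1 lower (-0.32 to -0.29), and their part in its Cst3, Ctsa and Ctsz was not tested. In neutrophils of cluster 1 it was at -0.35, with 100% and 99.6% of cells. All cells of both libraries had a count in the other 3 clusters, at -0.49 in the unidentified cluster 15, -0.38 in dendritic cells of cluster 17 and 0.35 in macrophages of cluster 11. In cluster 11 the inhibitor was higher where 3 of the proteases (Ctsb, Ctsc and Ctsd) were lower, beside the lower macrophage and neutrophil markers and the higher Flt3 of that cluster. Macrophage markers were also lower in clusters 6 (C1qb, -0.58) and 10 (4 of 9 listed, -1.07 to -0.34), where Cst3 was lower. Their part in the values of Cst3 was not tested.

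**Figure D2:**
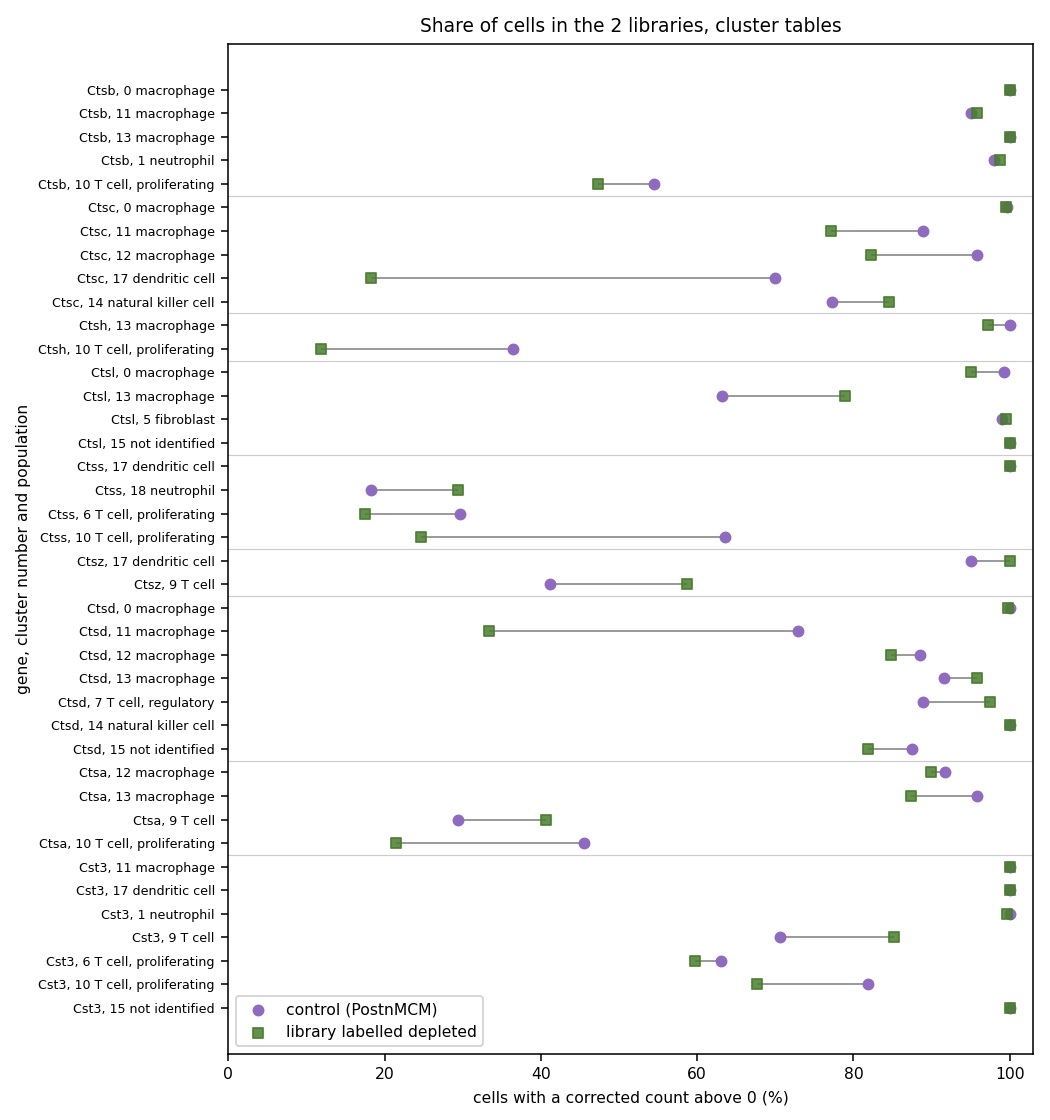
Percent of cells with a corrected count above 0 (horizontal axis) in the control library (purple circles) and the library labelled depleted (green squares, which cover the circle where both are equal) for each of the 40 rows in which a cluster lists a member (vertical axis). Long lines mark Ctsc in cluster 17 (70.0% and 18.2%), Ctsd in cluster 11 (72.9% and 33.3%) and Ctss in cluster 10 (63.6% and 24.7%), while Ctsb in clusters 0 and 13 stands at 100% in both.

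By the number of clusters with the same direction minus those with the opposite one, the genes most like Ctsd over its 7 clusters were Fth1 (5 shared clusters, all in the same direction, with a mean absolute difference in log2 fold change of 0.25), Flii (4 shared, 0.17) and Clec4n (4 shared, 0.30). For Cst3, also over 7 clusters, they were Gdi2 (5 shared, 0.18), Srsf5 (4 shared, 0.09) and Cotl1 (4 shared, 0.14). No other member was listed in at least 6 clusters, the number set for this comparison.

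The fibroblasts, the cells in which Postn is active, were divided by the authors into subclusters, of which 0, 3, 4 and 5 have tables of 15059 genes with no limit on size. Fibroblast markers (6 of 6 found) had a count in 79.1% to 97.8% of control cells on average and in 84.4% to 96.8% of cells labelled depleted. Per the study, subcluster 3 held proliferating myofibroblasts, subcluster 4 carried matrifibrocyte markers, and subclusters 0, 2 and 4 came mainly from control hearts. Subcluster 1, which per the study came mainly from hearts with floxed Yap1 and Wwtr1, was not analysed here, nor was subcluster 2. The values below thus leave out the fibroblasts of these subclusters. The tables do not say how many cells stand behind a value in any of the 4 subclusters. Fibroblasts were normalized again for these tables, and the values are not on one scale with those of the clusters.

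In subclusters 0, 4 and 5 most members were below 0, and in subcluster 3 most were above. Subclusters 0, 4 and 5 had 7, 8 and 8 of the 10 members below 0, against 1 in subcluster 3. In subclusters 0, 3, 4 and 5, the 10 members had median log2 fold changes of -0.14, 0.27, -0.30 and -0.21, and all genes had medians of -0.003, 0, 0 and 0. Taken as the log2 ratio of the shares of cells, the medians of the members were -0.02, 0, -0.04 and 0. In each subcluster 4 or 5 of the members had a count in the same share of cells of both libraries.

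At a size of at least 0.25, among the members with a count in at least 25% of cells of 1 library or the other, 2 of 9 were lower and 0 higher in subcluster 0, against 9.87% and 12.5% of all genes under the same share limit. In subcluster 3, 0 of 10 were lower and 5 higher, against 15.1% and 13.8%. In subcluster 4, 6 of 10 were lower and 1 higher, against 19.5% and 25.2%. In subcluster 5, 4 of 10 were lower and 0 higher, against 23.5% and 20.3%. At this size the members were lower more often than the background in subclusters 0, 4 and 5 and higher more often in subcluster 3. In subcluster 0 this rests on 2 of 9 genes. The background holds genes counted in as few as 25% of cells, while several members were counted in all cells. The 10 genes were not independent, and no test was made.

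Ctss spanned the widest range. In subcluster 3 it was counted in 63.3% of control cells and 56.5% of cells labelled depleted, with a log2 fold change of 1.74, so that the share of cells was lower while the mean was higher. In subcluster 4 the shares were 75.0% and 40.0% with -0.71. Subcluster 5 had 73.9% and 33.3% with -0.42, and subcluster 0 had 69.0% and 50% with -0.34. The share of cells with a Ctss count was therefore lower in the library labelled depleted in all 4 subclusters, and the mean in 3 of them.

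Ctsc showed the same for its shares. Subcluster 0 had 44.1% and 28.1% (-0.12), subcluster 3 had 40.0% and 34.8% (0.71), subcluster 4 had 50% and 10.0% (-0.65), and subcluster 5 had 56.5% and 23.8% (-0.08). In subcluster 3 the mean again went against the share of cells. Ctsh was at 0.76 in subcluster 3 with 50% and 65.2% of cells and at 0.13 in subcluster 0 with 70.3% and 62.5%. In subcluster 5 it was at -0.66 with 87.0% and 90.5%, and in subcluster 4 at 0.30 with 45.0% and 20%. In the last 3 of these its mean and its share of cells went opposite ways, so that no direction holds by both measures outside subcluster 3.

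**Figure D3:**
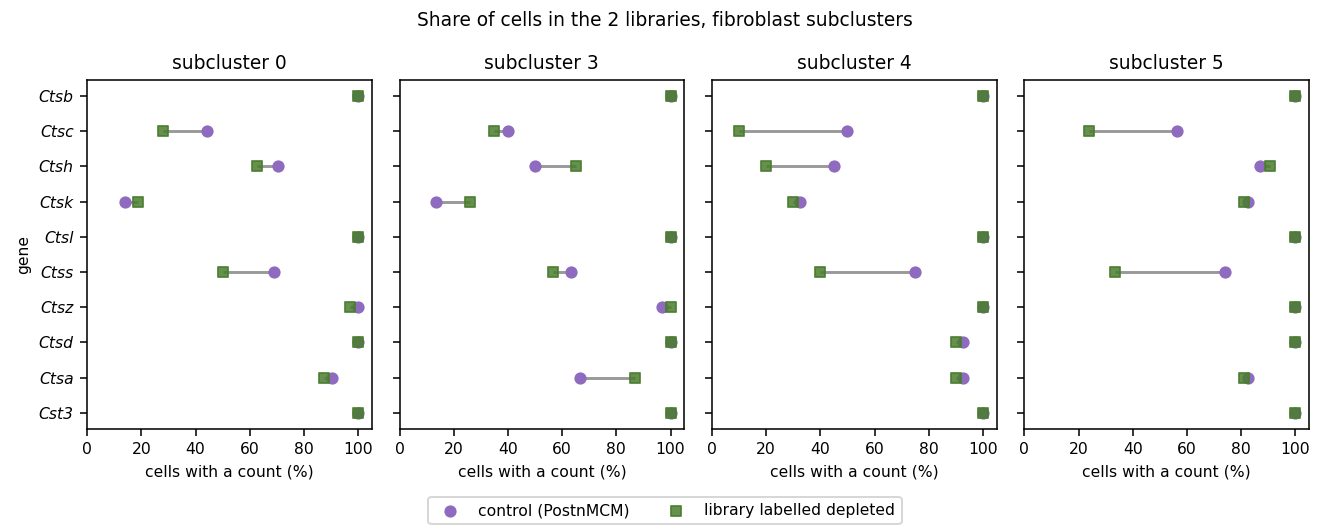
Percent of cells with a corrected count above 0 (horizontal axis) for the 10 genes (vertical axis) in 4 fibroblast subclusters, in the control library (purple circles) and the library labelled depleted (green squares, which cover the circle where both are equal). Ctss and Ctsc stand further left in the library labelled depleted in each panel, by most for Ctss in subcluster 5 (73.9% and 33.3%) and Ctsc in subcluster 4 (50% and 10.0%), while Ctsb, Ctsl and Cst3 stand at 100% throughout.

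Ctsb, Ctsl and Cst3 had a count in all fibroblasts of both libraries in the 4 subclusters, so that their differences are in amount. Ctsl was at 0.20, 0.36, -0.19 and -0.39 in subclusters 0, 3, 4 and 5. Ctsb was at -0.02, 0.24, -0.40 and 0.14. Cst3 was at -0.25, 0.17, -0.33 and -0.39. Each of these 3 genes was above 0 in subcluster 3 and below 0 in subcluster 4.

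Ctsd was the 1 member below 0 in all 4 subclusters, at -0.28, -0.02, -0.31 and -0.10 in subclusters 0, 3, 4 and 5, with a count in 92.5% of control cells and 90.0% of cells labelled depleted in subcluster 4 and in all cells of the others. Ctsz was at -0.20, 0.15, -0.29 and -0.22, with a count in no fewer than 96.7% of cells in both libraries. Ctsa was at -0.16, 0.30, 0.04 and 0.20, and its share of cells differed most in subcluster 3, from 66.7% to 87.0%. Of these 3 genes, Ctsa alone was above 0 in more than 1 subcluster.

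Ctsk differed little in mean, at 0.07, 0.10, -0.11 and -0.20 in subclusters 0, 3, 4 and 5. Its shares of cells set subcluster 5 apart in both libraries, at 82.6% of control cells and 81.0% of cells labelled depleted. Subcluster 0 had 13.8% and 18.8%, subcluster 3 had 13.3% and 26.1%, and subcluster 4 had 32.5% and 30%. Ctsk was thus the member whose share varied most among fibroblast subclusters of the control library.

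Macrophage markers were also counted in these fibroblasts. Of 9 markers, all found, 9 were above 0 in subcluster 3 (median 0.78) and 8 were below 0 in subcluster 4 (median -0.14), as was the case for most of the 10 members. In subcluster 0, 3 were below and 6 above 0 (median 0.07, with Lyz2 at -1.83), and in subcluster 5 all 9 were above 0 (median 0.37), where 8 members were below. The mean share of cells with a count of these markers was 37.7% to 49.4% in the control and 29.6% to 39.1% in the library labelled depleted. Fcgr1 was at 0 in the library labelled depleted in subcluster 4 and in the control in subcluster 5. The 6 neutrophil markers found had medians of -1.63, -0.32, -0.57 and 0.11 in subclusters 0, 3, 4 and 5. The 4 T cell markers found were above 0 in each subcluster, and the 4 erythroid markers below 0 in each. The part of these markers' cells or free RNA in the values of Ctss, Ctsc and Ctsh was not tested.

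**Figure D4:**
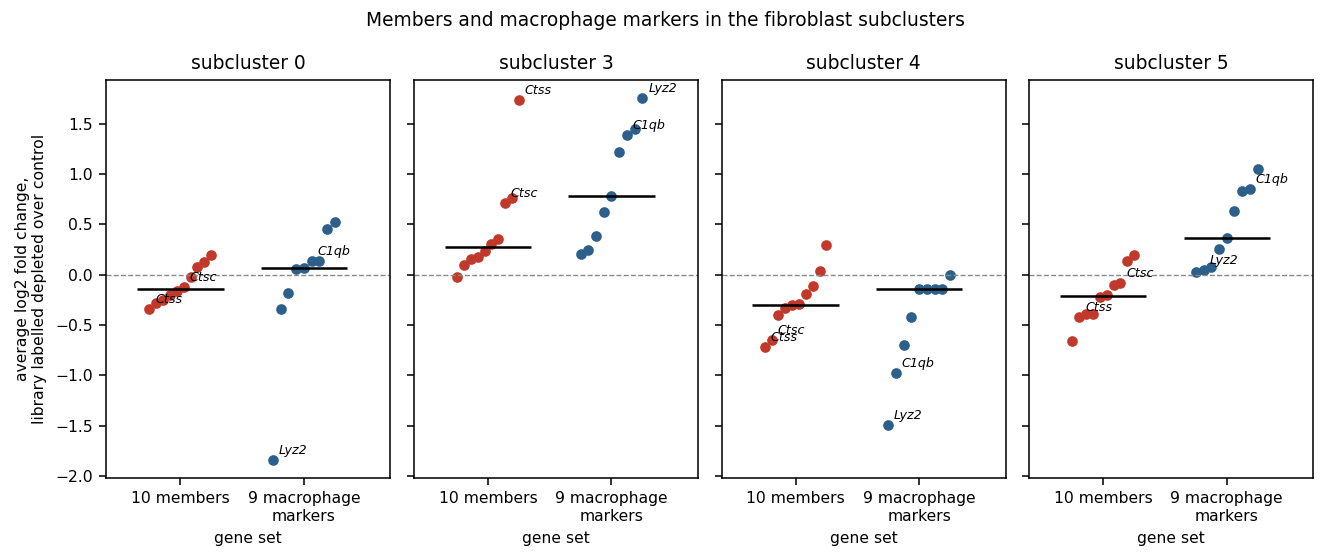
Average log2 fold change, library labelled depleted against control (vertical axis), of the 10 members (red points) and of 9 macrophage markers (blue points) in each fibroblast subcluster, with the median of each set as a black bar and 0 as a dashed line. In subcluster 3 Ctss (1.74) stands near Lyz2 (1.75), in subcluster 4 both sets lie mostly below 0, and in subcluster 5 the median of the markers (0.37) is above 0 and that of the members (-0.21) below.

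Other genes of the lysosome were followed in lists. Of 36 other hydrolases and cofactors, 35 were found and 22 listed in a cluster, 38 times lower and 24 times higher. Fuca1, a fucosidase, was lower in 9 clusters and higher in 1 (-0.65 to 0.26) and was below 0 in the 4 fibroblast subclusters (-0.43 to -0.20). Hexa, a subunit of beta-hexosaminidase, was lower in 4 clusters and higher in none. Npc2, a carrier of cholesterol, was lower in 4 and higher in 1, and Psap, the precursor of the saposins, was lower in 3 and higher in 4 (-0.73 to 0.66). The share listed lower was 61.3%, and 55.8% without Fuca1, against 52.3% over all listed genes. Their medians in subclusters 0, 3, 4 and 5 were 0.09, 0.11, 0.07 and 0.01.

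Of the 12 lysosomal membrane proteins, 8 were listed, 10 times lower and 13 times higher. Scarb2, which carries glucocerebrosidase to the lysosome, was higher in 5 clusters (0.25 to 0.63) and lower in none. In fibroblasts of cluster 5 it was counted in 20.8% of control cells and 50.3% of cells labelled depleted, and in the subclusters its log2 fold change was 0.80 to 1.31. Subunits of the vacuolar ATPase, the proton pump that acidifies the lysosome, were listed 19 times lower and 22 times higher (12 of 16 listed), with Atp6v1e1 higher in 7 clusters (0.26 to 0.48) and lower in none and Atp6v0e lower in 4 and higher in 1. Without Atp6v1e1 the subunits were listed 19 times lower and 15 times higher.

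Of the 10 sorting and transcription factors, 6 were listed, 3 times lower and 12 times higher. Grn, the precursor of lysosomal granulins, made up 7 of these rows, all higher (3 lower and 5 higher without it), from 0.28 in neutrophil cluster 18 to 0.87 in macrophage cluster 0. Tfe3 was higher in 2 clusters and lower in 1, and M6pr, a mannose 6-phosphate receptor, was higher in 2. In macrophage cluster 0 Grn (0.87) and Psap (0.66) were higher, as was Ctsb (0.37), where Ctsc, Ctsl and Ctsd were lower.

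Other cystatins and stefins (6 of 13 found) were listed 6 times lower and 3 times higher. Cstb, a cystatin that acts inside the cell, was higher in neutrophil cluster 1 (0.91) and macrophage cluster 13 (0.86), the 2 clusters with the highest log2 fold change of Ctsb, and lower in clusters 6, 11, 17 and 18. Cstdc5 was listed in neutrophil cluster 1 alone, at -1.45. Cst7, an inhibitor of cathepsins in immune cells, was lower in cluster 9 (-0.45) and higher in cluster 11 (0.30). Of the 5 other cathepsins, 3 were found, and Ctsw, a protease of cytotoxic lymphocytes, was listed higher in T cell clusters 4 (13.8% and 28.7% of cells, 0.35) and 7 (52.5% and 76.7%, 0.34). Cluster 7 also listed 3 of 5 natural killer cell markers higher (0.42 to 0.76), and their part in its values was not tested.

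**Figure D5:**
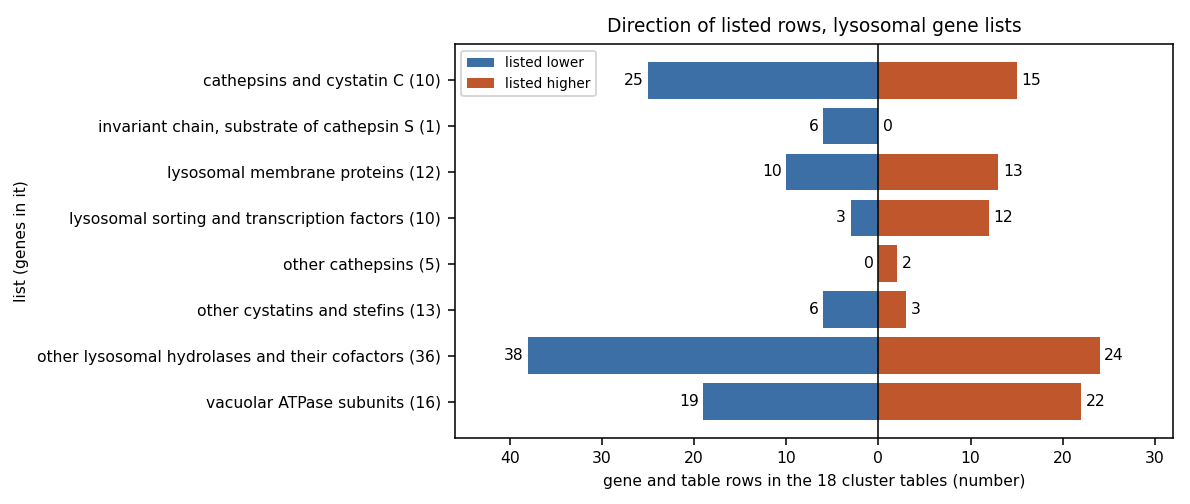
Number of rows in the 18 cluster tables (horizontal axis) that list a gene lower (blue, left of 0) or higher (orange, right of 0) in the library labelled depleted, for the 10 members and 7 lists of lysosomal genes (vertical axis, with the number of genes in each). The members (25 lower, 15 higher) and the other hydrolases (38 and 24) extend further to the left, and sorting and transcription factors (3 and 12) further to the right.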

How the data were processed

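Libraries were made with 10x V3.1 chemistry. The authors aligned reads with Cell Ranger 6.1.1 to GRCm39 with NCBI annotation and reporter sequences, joined both libraries without evening out depth, normalized in Seurat by SCTransform, clustered the cells, and compared the libraries within each cluster by a Wilcoxon test over cells. The deposited log2 values are the authors' average log2 fold changes, and the deposited fractions are shares of cells with a corrected count above 0, printed here as percent. The deposited adjusted p-values treat cells as replicates and served as a filter in 1 alternative. These are columns of the authors' own comparison, and no other values per library were in the tables used here. Cluster 16 and subclusters 1 and 2 were not analysed here. Total counts and cell numbers per library were not given in these tables.

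The 10 members were read by symbol from 22 tables with Python 3.11.15, pandas 2.3.3, numpy 2.4.6 and matplotlib 3.10.9. The counting was tested on simulated data. The members and lists were chosen with earlier results of these data known. Named genes were the members, up to 4 genes per list with the most clusters in 1 direction, and the 3 genes most like a member listed in at least 6 clusters. Macrophage and neutrophil markers named beside a result come from the marker lists. Positions come from GENCODE vM39. Alternatives were the ratio of shares, centring on each table's median, larger size limits, the p-value filter, and leaving out clusters 6, 9 and 10 or cluster 15.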

Additional observations from a re-analysis of the deposited data

Results flagged for a closer look

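Among the 10 members, 5 had log2 fold changes of 0.5 or more in one population and of -0.5 or less in another. With 1 library per genotype these differences between populations were not tested, and subclusters were normalized apart from clusters, so that the 2 values of Ctsc are not on one scale. Ctsc was at -0.90 in dendritic cell cluster 17 and 0.71 in fibroblast subcluster 3, where its share of cells was lower (40.0% and 34.8%). Ctsh was at 0.76 in fibroblast subcluster 3 and at -0.66 among the cells of subcluster 5. Ctsl was at -0.54 in macrophage cluster 0 and 1.24 in macrophage cluster 13. Ctss reached 1.74 in fibroblast subcluster 3 and stood at -0.71 among the cells of subcluster 4. Ctsd was at -0.90 in macrophage cluster 11 and 0.68 in macrophage cluster 13. For Ctsl and Ctsd the share of cells went the same way as the log2 fold change in both populations, and for Ctsc and Ctss it did not in subcluster 3, nor for Ctsh in subcluster 5.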

How the results depend on the processing

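Over the 18 clusters the members were lower in 25 and higher in 15 rows. These counts became 10 and 4 with a size limit of 0.5, 0 and 1 with a limit of 1, and 4 and 1 with the authors' adjusted p-value under 0.05. They stayed within 1.5 times with the ratio of shares (20 and 12), without clusters 6, 9 and 10 (18 and 12) and without cluster 15 (23 and 14). Single members moved more without clusters 6, 9 and 10. Ctss was then lower in 1 cluster in place of 3, and Cst3 lower in 3 in place of 5 and higher in 1 in place of 2. Ctsb and Ctsh were each lower in 1 in place of 2, and Ctsz was higher in 1 in place of 2. Ctsa was lower in 2 in place of 3 and higher in 0 in place of 1. Of 80 member values, the ratio of shares turned 9 in sign, 6 of them at least 0.25 in size: Ctsb in cluster 11 to 0.0106, Ctsc in cluster 14 to 0.13 and in subcluster 3 to -0.20, Ctsh in subcluster 4 to -1.17 and in subcluster 5 to 0.0569, and Ctss in subcluster 3 to -0.16. The 3 smaller ones were Ctsh in subcluster 0 (-0.17) and Ctsa in subclusters 4 (-0.0395) and 5 (-0.0282). Centring gave 24 and 16 rows, turned Ctsa in cluster 12 to 0.0032 and moved the other 39 cluster values by at least 0.25. The cluster tables list no gene under that size, so their medians lie beyond it by construction, and centring says nothing there of stability. As a ratio of shares, 55 values besides those 6 moved by at least 0.25, became 0 or, where smaller than 0.25, changed sign. The 3 smaller ones above are among these 55. The median of the 10 members became 0 in subclusters 3 and 5 and -0.0395 in subcluster 4 as a ratio of shares. The cause was not tested. No paired analysis was possible because the genotypes had a single library each. Depth and cell numbers per cluster are not in the tables used here, so no limit of detection was set.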
